A study of Mus musculus with 2 samples.

Results

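The genes described here are the 6 leukocyte adhesion molecules of vessels Vcam1, Icam1, Icam2, Jam2, Selp and Sele, taken by symbol from the 31053 genes of the count matrices. They were followed across 6 cell classes of the mouse heart: capillary, arterial, venous and endocardial endothelium, mural cells (pericytes and smooth muscle cells) and fibroblasts. The db/db + salt library came from mice with both copies of the leptin receptor gene Lepr mutated, a model of obesity and diabetes, that also received 1% salt. In the series title these mice stand for heart failure with preserved ejection fraction, abbreviated there as HFpEF. The db/+ library came from mice with the mutation on a lone copy, with no salt given in the labels. Genotype and salt differ together, so their parts in any difference cannot be told apart. The design text gives 4 male hearts per genotype; age and strain background are not stated. Cardiomyocytes were filtered out and leukocytes taken off with CD45 beads before the 10x Genomics 3' kit was run, and each group is 1 library. With 1 library per group there is no replicate error and no test: every interval below is a 95% interval for counting error only. 3' tags do not read the Lepr mutation and were not used as a check of genotype.

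Leukocytes leave the blood in steps. Selectins on endothelium, P-selectin (Selp) and E-selectin (Sele), catch flowing leukocytes by binding sugars on them and let them roll. The immunoglobulin family members Vcam1, Icam1 and Icam2 then bind leukocyte integrins and hold the cell, and junction molecules such as Jam2 take part in its passage between endothelial cells. Inflammatory cytokines that act through NF-kB and STAT factors are known to raise Vcam1, Icam1, Selp and Sele, while Icam2 and Jam2 are carried by resting endothelium. Endothelium of small veins is the usual place of leukocyte exit.

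In the GENCODE M21 annotation of GRCm38, Sele lies at chr1:164048234-164057677 and Selp at chr1:164115264-164150026, close neighbours on the plus strand. Icam1 lies at chr9:21015985-21028817 and Jam2 at chr16:84774123-84825928, both on the plus strand. Vcam1 lies at chr3:116109949-116129688 and Icam2 at chr11:106377656-106388075, both on the minus strand. Whole genes were counted, so no value belongs to an exon or a transcript form. Annotated genes without a name of known function overlap Vcam1, Icam1, Selp and Jam2; whether strand was used in counting is not stated in the sources used here, so their UMIs may include reads of these neighbours.

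Promoters of 3 of the 6 genes, Icam1, Selp and Sele, were matched in RefSeq (GRCm38.p6); Vcam1, Icam2 and Jam2 were not matched. The 250 bases before each RefSeq start site are shown because these are the cytokine-induced members with a sequence at hand. Capitals mark 3 searched patterns, read on both strands: GGNNNTTCC (NF-kB type), TTCNNNGAA (STAT type) and TATAAA.
Icam1, chr9:21015690-21015939, plus strand: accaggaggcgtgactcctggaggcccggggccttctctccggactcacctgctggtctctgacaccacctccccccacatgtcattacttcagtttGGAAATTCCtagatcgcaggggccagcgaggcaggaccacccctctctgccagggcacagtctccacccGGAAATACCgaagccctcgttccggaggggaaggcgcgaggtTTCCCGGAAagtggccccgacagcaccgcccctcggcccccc
Selp, chr1:164115014-164115263, plus strand: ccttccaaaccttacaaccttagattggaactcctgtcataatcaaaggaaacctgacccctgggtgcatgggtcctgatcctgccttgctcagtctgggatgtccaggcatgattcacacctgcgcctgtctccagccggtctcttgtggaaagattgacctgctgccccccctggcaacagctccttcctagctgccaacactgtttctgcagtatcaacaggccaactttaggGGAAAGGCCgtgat
Sele, chr1:164047984-164048233, plus strand: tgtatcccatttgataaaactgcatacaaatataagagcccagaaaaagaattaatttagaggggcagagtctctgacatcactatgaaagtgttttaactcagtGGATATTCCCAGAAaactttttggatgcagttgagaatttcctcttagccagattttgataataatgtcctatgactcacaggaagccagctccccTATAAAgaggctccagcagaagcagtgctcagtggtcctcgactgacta
The Icam1 window held 2 NF-kB type matches and 1 STAT type match, the Selp window 1 NF-kB type match, and the Sele window 1 of each, which overlap, and TATAAA. Among 32851 RefSeq promoter windows of the same length, 15.7% held the NF-kB type pattern, 7.02% the STAT type pattern and 12.4% TATAAA. The interferon-stimulated response element pattern was in 2.98% of windows and not in these 3. A match is a run of letters, not a shown binding site.

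The db/db + salt matrix held 4751 barcodes with 40974634 UMIs (unique molecules) and the db/+ matrix 5676 barcodes with 44935235 UMIs. After filters 4094 and 4884 barcodes remained, and the matrices shared 7 barcode sequences. In db/db + salt and db/+ the classes held 1861 and 2223 capillary, 402 and 373 arterial, 141 and 197 venous, 46 and 50 endocardial, 61 and 65 mural, and 1092 and 1241 fibroblast barcodes. Classes were set by marker UMIs, none of them from the 6 genes. The levels of these markers are therefore set by the class rule; of the venous ones, Ackr1, a marker of small venules, had only 2.42 CPM in db/db + salt and 6.15 CPM in db/+. Clustering split the endothelium partly by library: 1 cluster named venous held 0 db/db + salt and 152 db/+ barcodes, and 1 named capillary held 9 and 785, so the venous and capillary classes may draw on different clusters in each library. Dcn, a fibroblast gene, stood at 2625 CPM in db/db + salt and 3129 CPM in db/+ endocardial barcodes, and its part in the endocardial levels was not tested. Levels are CPM, a gene's UMIs scaled to 1000000 UMIs of its class, and ratios are on the log2 scale after adding 10 CPM to each library, db/db + salt over db/+. The added 10 CPM pulls the ratio of low genes towards 0. A gene counts as measured in a class when its mean over the libraries is at least 10 CPM, and as higher or lower when its ratio is at least 1.5-fold.

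**Figure D1:**
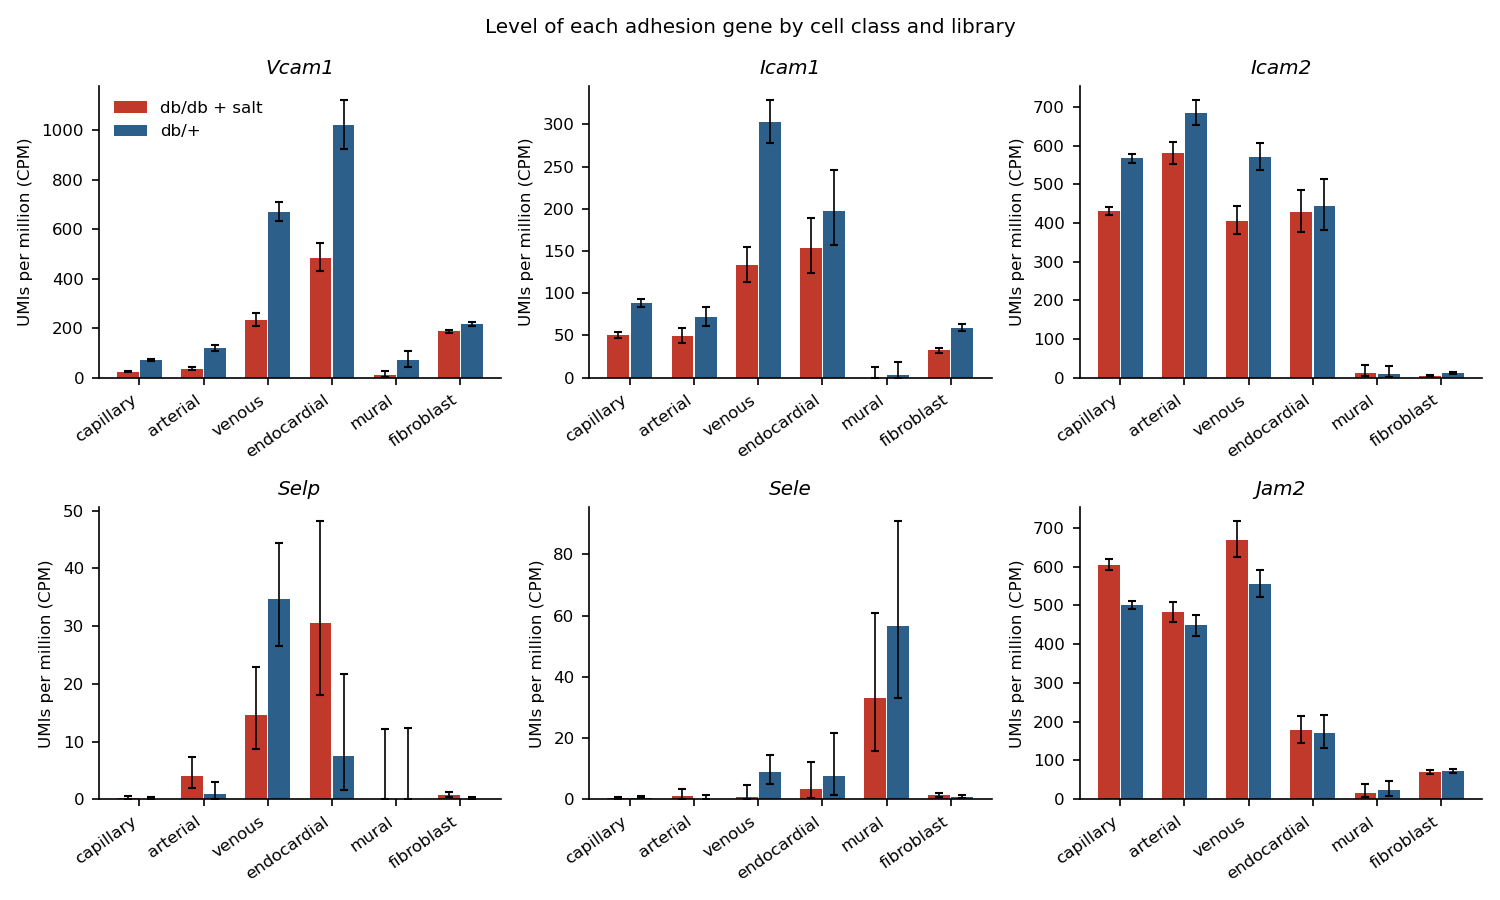
Level of each gene in CPM (linear axis from 0) by cell class, with db/db + salt bars on the left and db/+ bars on the right of each pair; error bars are exact Poisson 95% intervals for counting error, and each bar is 1 library. Vcam1 and Icam1 are highest in venous and endocardial barcodes, Icam2 and Jam2 are spread over all endothelium, and Sele is highest in mural barcodes.

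Vcam1, the ligand of the integrin VLA-4 on lymphocytes and monocytes, was lower in db/db + salt than in db/+ in all 4 endothelial classes and in mural barcodes. In capillary barcodes its level was 24.3 CPM (21.8 to 27.1) in db/db + salt and 71.8 CPM (67.9 to 75.9) in db/+, a log2 ratio of -1.25. Arterial barcodes had 37.2 CPM (30.3 to 45.1) in db/db + salt and 119 CPM (106 to 134) in db/+, a log2 ratio of -1.46. Venous barcodes had 234 CPM (208 to 263) in db/db + salt, against 669.7 CPM (632 to 709) in db/+, a log2 ratio of -1.48 (-1.66 to -1.30). The counting intervals of the libraries lay apart in each of these classes. In endocardial barcodes, which had the highest Vcam1 level of the 6 classes, it stood at 484 CPM in db/db + salt and 1019 CPM in db/+, a log2 ratio of -1.06 (-1.28 to -0.84). Mural barcodes held 3 Vcam1 UMIs in db/db + salt, in 2 barcodes, and 21 in db/+, in 12 barcodes. Fibroblasts differed least, with 187 CPM (179.7 to 194) in db/db + salt and 218 CPM (210.02 to 227) in db/+, a log2 ratio of -0.21 (-0.29 to -0.14).

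The order of the classes was the same in both libraries. In both, Vcam1 went from endocardial through venous, fibroblast and arterial to capillary barcodes without overlap of neighbouring intervals, and only capillary and mural barcodes, the last in order, overlapped. Fibroblasts held 67.5% of all Vcam1 UMIs of the kept barcodes in db/db + salt and 42.2% in db/+. In capillary barcodes the gene was found in few cells: 140 of 1861 barcodes in db/db + salt and 376 of 2223 in db/+ held a UMI, and the highest barcode held 50 in db/db + salt and 80 in db/+.

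Icam1, a ligand of the leukocyte integrins LFA-1 and Mac-1, was also lower in db/db + salt, by less than Vcam1 in the 4 endothelial classes and by more in fibroblasts. In capillary barcodes it had 50.8 CPM (47.1 to 54.7) in db/db + salt and 88.4 CPM (84.0 to 92.9) in db/+, a log2 ratio of -0.69. In venous barcodes it had 133 CPM (114 to 155) in db/db + salt and 302 CPM (277 to 329) in db/+, a log2 ratio of -1.12 (-1.37 to -0.89). The venous ratio was the widest of Icam1 among these classes, and venous barcodes had the highest Icam1 level in db/+. Arterial barcodes gave 49.7 and 72.0 CPM in db/db + salt and db/+, a log2 ratio of -0.46, short of 1.5-fold. Endocardial intervals overlapped, at 154 CPM (124 to 189) in db/db + salt and 198 CPM (157 to 246) in db/+. In fibroblasts Icam1 had 32.3 CPM (29.3 to 35.5) in db/db + salt and 59.4 CPM (55.2 to 63.8) in db/+, a log2 ratio of -0.71, so here Icam1 was lower while Vcam1 differed little; after thinning every barcode to 1500 UMIs the Icam1 ratio was -0.28, short of 1.5-fold. Mural barcodes held 0 Icam1 UMIs in db/db + salt, with an upper limit of 12.2 CPM, and 1 in db/+.

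Icam2, another ligand of LFA-1, was mainly endothelial and differed by less than 1.5-fold in the 4 endothelial classes. Capillary barcodes had 431 CPM in db/db + salt and 567 CPM in db/+, a log2 ratio of -0.39 (-0.43 to -0.34). Venous barcodes had 406 and 572 CPM in db/db + salt and db/+, a log2 ratio of -0.48, and arterial barcodes 580.1 and 685 CPM, a log2 ratio of -0.24. All 3 differences went the same way as those of Vcam1 and Icam1. Endocardial levels of 428 CPM in db/db + salt and 445 CPM in db/+ overlapped. Mural barcodes held 4 Icam2 UMIs in db/db + salt and 3 in db/+. Fibroblasts, below the level set for a measured gene, had 5.68 CPM (4.48 to 7.09) in db/db + salt and 11.9 CPM (10.04 to 14.0) in db/+, a linear ratio of db/db + salt over db/+ of 0.48 (0.36 to 0.63) without the added 10 CPM.

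Jam2, a junction molecule that binds Jam3 and VLA-4, was the member that stood slightly higher in db/db + salt. Capillary barcodes had 605 CPM (592 to 618) in db/db + salt and 502 CPM (491 to 512) in db/+, a log2 ratio of 0.27. Venous barcodes had 669 CPM (624 to 716) in db/db + salt and 556 CPM (522 to 592) in db/+, a log2 ratio of 0.26. Both ratios were below 1.5-fold, though outside counting error. The venous ratio kept its direction under 14 of 15 alternatives of processing, with a lowest value of -0.04. Arterial levels of 483 and 448 CPM in db/db + salt and db/+ overlapped, as did endocardial levels of 178 and 171 CPM and fibroblast levels of 69.9 and 72.0 CPM. Jam2 was lower in endocardial than in the other endothelial barcodes in both libraries, the opposite of Vcam1.

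**Figure D2:**
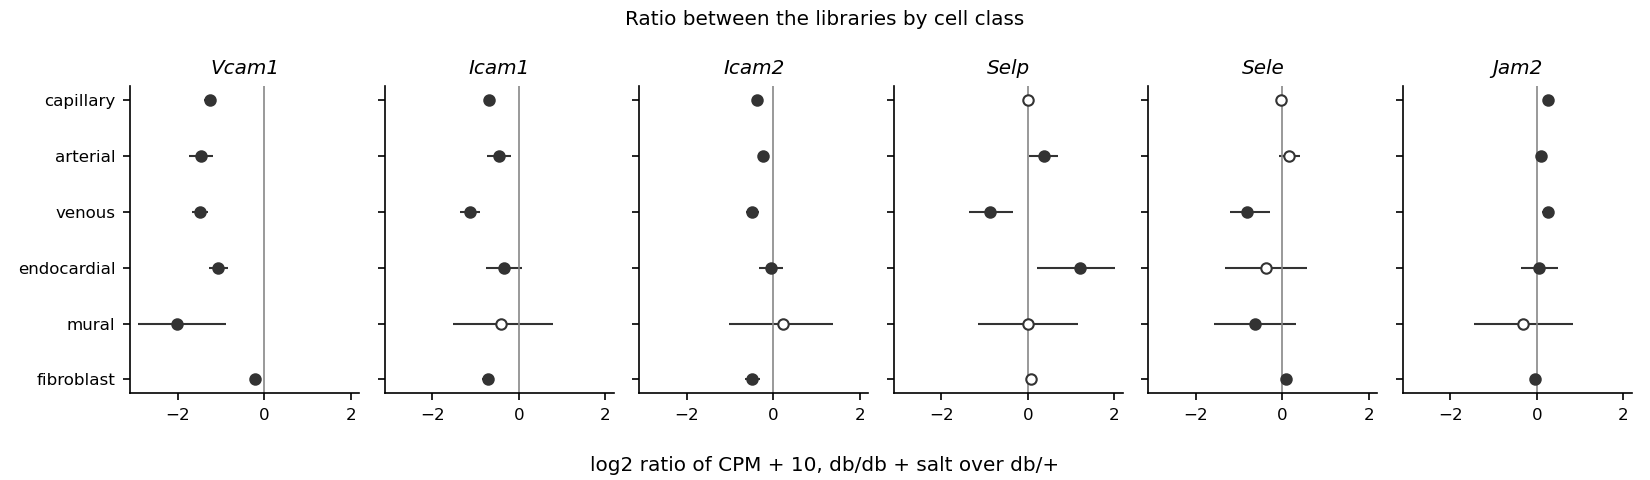
Log2 ratio of CPM plus 10, db/db + salt over db/+, for each gene (panels) and cell class (lines), with 95% intervals for counting error; open circles mark pairs in which neither library reached 10 UMIs. Vcam1 lies left of 0 in all 6 classes, Jam2 lies at or slightly right of 0 in endothelial classes, and Selp has opposite signs in venous and endocardial barcodes.

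Of the 6 genes, 4 were measured in capillary barcodes, and Vcam1 and Icam1 of these were at least 1.5-fold lower in db/db + salt and 0 higher; of 8192 measured genes, 1.64% were lower and 0.61% higher by that much. In venous barcodes 5 were measured and Vcam1, Icam1 and Selp were lower and 0 higher, against 2.87% lower and 2.75% higher of 8393 genes. In arterial barcodes Vcam1 alone was lower and 0 were higher, against 1.35% lower and 1.07% higher. In fibroblasts Icam1 alone was lower and 0 were higher, against 0.968% lower and 0.622% higher. Over all endothelial barcodes Vcam1 and Icam1 were lower and 0 of 4 measured were higher, against 1.52% lower and 0.519% higher. In endocardial barcodes Vcam1 was lower, against 6.27% of genes, and Selp higher, against 11.4%. In mural barcodes Vcam1 and Sele were lower, and 0 were higher, against 13.9% lower and 12.7% higher, the highest shares of lower and higher genes among the 6 classes.

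Selp was a gene of few venous and endocardial barcodes. In venous barcodes it had 18 UMIs in 11 barcodes of db/db + salt and 62 UMIs in 35 barcodes of db/+, or 14.5 CPM (8.62 to 23.0) and 34.7 CPM (26.6 to 44.4), a log2 ratio of -0.86 (-1.35 to -0.35) that became -0.28 after thinning. In endocardial barcodes it had 18 UMIs in 6 barcodes of db/db + salt and 3 UMIs in 3 barcodes of db/+, or 30.5 CPM (18.1 to 48.1) and 7.42 CPM (1.53 to 21.7), a log2 ratio of 1.22 (0.20 to 2.01). The endocardial difference thus rested on 6 barcodes of db/db + salt, the fullest of which held 7 UMIs, and its sign turned to -0.17 when classes were taken from clusters. Capillary barcodes held 2 Selp UMIs in each library, although they outnumber venous ones, and mural barcodes held 0. Arterial barcodes held 11 Selp UMIs in db/db + salt and 2 in db/+, all of them in the few arterial barcodes with 3 or more UMIs of Cytl1, a gene of the endocardial marker list, which numbered 7 in db/db + salt and 11 in db/+.

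Sele was rare, and its highest level was in mural barcodes. These held 10 Sele UMIs in 7 barcodes of db/db + salt and 17 UMIs in 14 barcodes of db/+, or 33.0 CPM (15.8 to 60.8) and 56.7 CPM (33.0 to 90.7); the intervals overlapped. The log2 ratio of -0.63 was short of 1.5-fold under 5 alternatives, the smallest being -0.23 with mural barcodes that carry endothelial markers kept. Every one of these UMIs lay in barcodes with more pericyte than smooth muscle UMIs. The class rule allows mural barcodes at most 4 UMIs of the 7 endothelial markers; these markers summed to 139 CPM in db/db + salt and 62.4 CPM in db/+ in barcodes with a Sele UMI, and to 150.01 and 89.0 CPM in the other mural barcodes. Of the barcodes with a Sele UMI, 3 in db/db + salt and 10 in db/+ held no endothelial UMI. Kcnj8, a pericyte potassium channel gene, stood at 3304 CPM in db/db + salt and 3152 CPM in db/+ in these barcodes, and at 1541 and 1446 CPM in the other mural barcodes; this split was chosen after the values were seen. Mural barcodes held at most 4 UMIs of Icam2 and 1 of Icam1 in a library.

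Venous barcodes held 1 Sele UMI in db/db + salt and 16 in db/+, and 15 of those 16 were in barcodes with 3 or more UMIs of class II antigen presentation genes. In fibroblasts 19 Sele UMIs in db/db + salt and 10 in db/+ gave 1.40 and 0.81 CPM. Of the db/db + salt ones, 13 lay in the 134 fibroblasts with mostly Cilp and Postn UMIs, genes of activated fibroblasts. All 19 lay in 11 fibroblast barcodes, the fullest of which held 7, so the 13 may come from few barcodes. The 10 of db/+ lay in 6 barcodes, the fullest with 4.

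**Figure D3:**
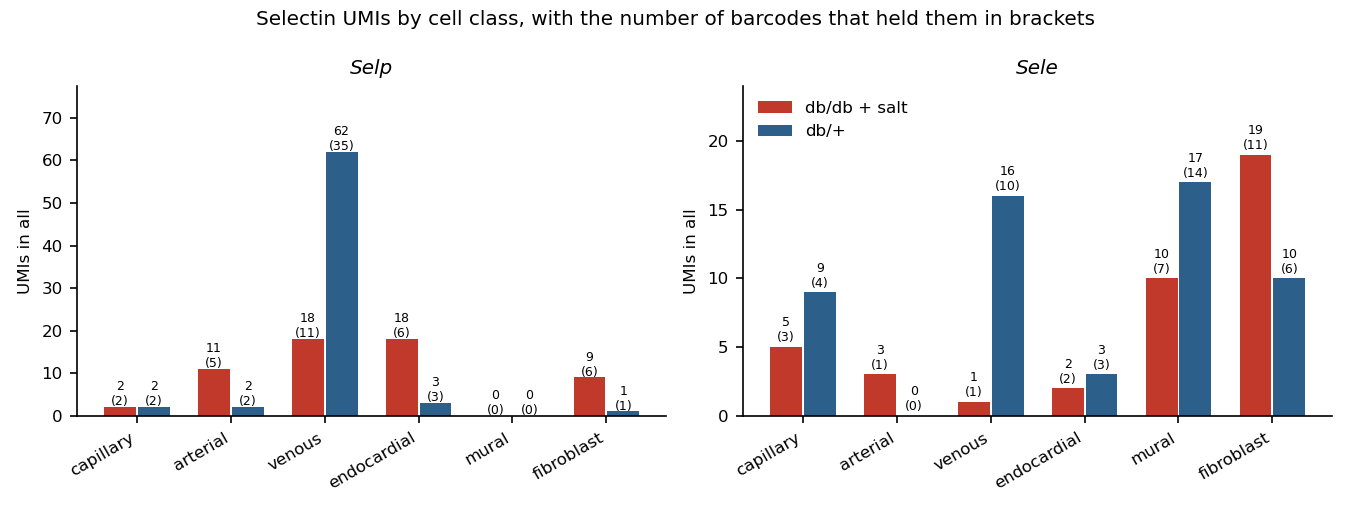
UMIs of Selp and Sele in each cell class (bars from 0, db/db + salt left of db/+), with the number of barcodes that held them in brackets. Selp is mostly venous in db/+, with 62 UMIs, and Sele UMIs are spread over several classes, with 10 and 17 in the 61 and 65 mural barcodes of db/db + salt and db/+.

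In db/+ venous and capillary barcodes, Vcam1 and Icam1 were highest in those that carried interferon-gamma response genes. Such barcodes were far fewer in db/db + salt. Their part in the difference between the libraries was not tested. Class II genes (Cd74, H2-Aa, H2-Ab1 and H2-Eb1), which interferon-gamma induces in endothelium, had 3 or more UMIs in 0.71% of venous barcodes in db/db + salt and 37.6% in db/+, and in 0.11% and 6.88% of capillary barcodes. In db/+ venous barcodes Vcam1 stood at 1015 CPM with 3 or more class II UMIs and at 381 CPM with none. In db/+ capillary barcodes the levels were 238 and 42.0 CPM.

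Barcodes with no class II UMI, which were most of both libraries, still differed, by less. They made up 97.9% of db/db + salt and 53.3% of db/+ venous barcodes, and 99.2% and 87.3% of capillary ones. This grouping is therefore not independent of the difference between the libraries, and nothing is drawn from the smaller ratios. Vcam1 in such venous barcodes had 228 CPM in db/db + salt and 381 CPM in db/+, a log2 ratio of -0.71 (-0.94 to -0.49), and in such capillary barcodes 24.6 and 42.0 CPM, a log2 ratio of -0.59 (-0.73 to -0.44). Icam1 in such barcodes was no longer 1.5-fold apart, with a log2 ratio of -0.49 (-0.80 to -0.18) in venous and -0.39 (-0.51 to -0.27) in capillary ones. Selp in venous barcodes without class II UMIs had 14.8 CPM in db/db + salt and 15.8 CPM in db/+, a log2 ratio of -0.06. Of the 62 db/+ Selp UMIs, 39 lay in the 74 venous barcodes with 3 or more class II UMIs.

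Capillary barcodes were also divided by how many of 1500 sampled UMIs came from interferon-gamma response genes. These were an 18-gene list without its class II genes Cd74, H2-Aa and H2-Ab1. With 0 or 1 such UMIs Vcam1 had 27.6 CPM in db/db + salt and 22.1 CPM in db/+, a log2 ratio of 0.23 (-0.02 to 0.47). With 8 or more, Vcam1 had 39.4 CPM in 22 barcodes of db/db + salt and 158 CPM in 543 barcodes of db/+. Icam1 had 53.9 CPM in db/db + salt and 39.1 CPM in db/+ in the lowest group, a log2 ratio of 0.38 (0.17 to 0.59), and 138 CPM in the highest group of db/+. In venous barcodes with 0 or 1 of them Vcam1 had 227 and 304 CPM in db/db + salt and db/+, a log2 ratio of -0.41 (-0.78 to -0.03). Jam2 in the lowest capillary group had 599 CPM in db/db + salt and 546 CPM in db/+, a log2 ratio of 0.13. Of 17 measured genes of the full list, class II genes included, 16 were themselves lower in db/db + salt capillary barcodes. The grouping is therefore not independent of the difference between the libraries and nothing is drawn from it.

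**Figure D4:**
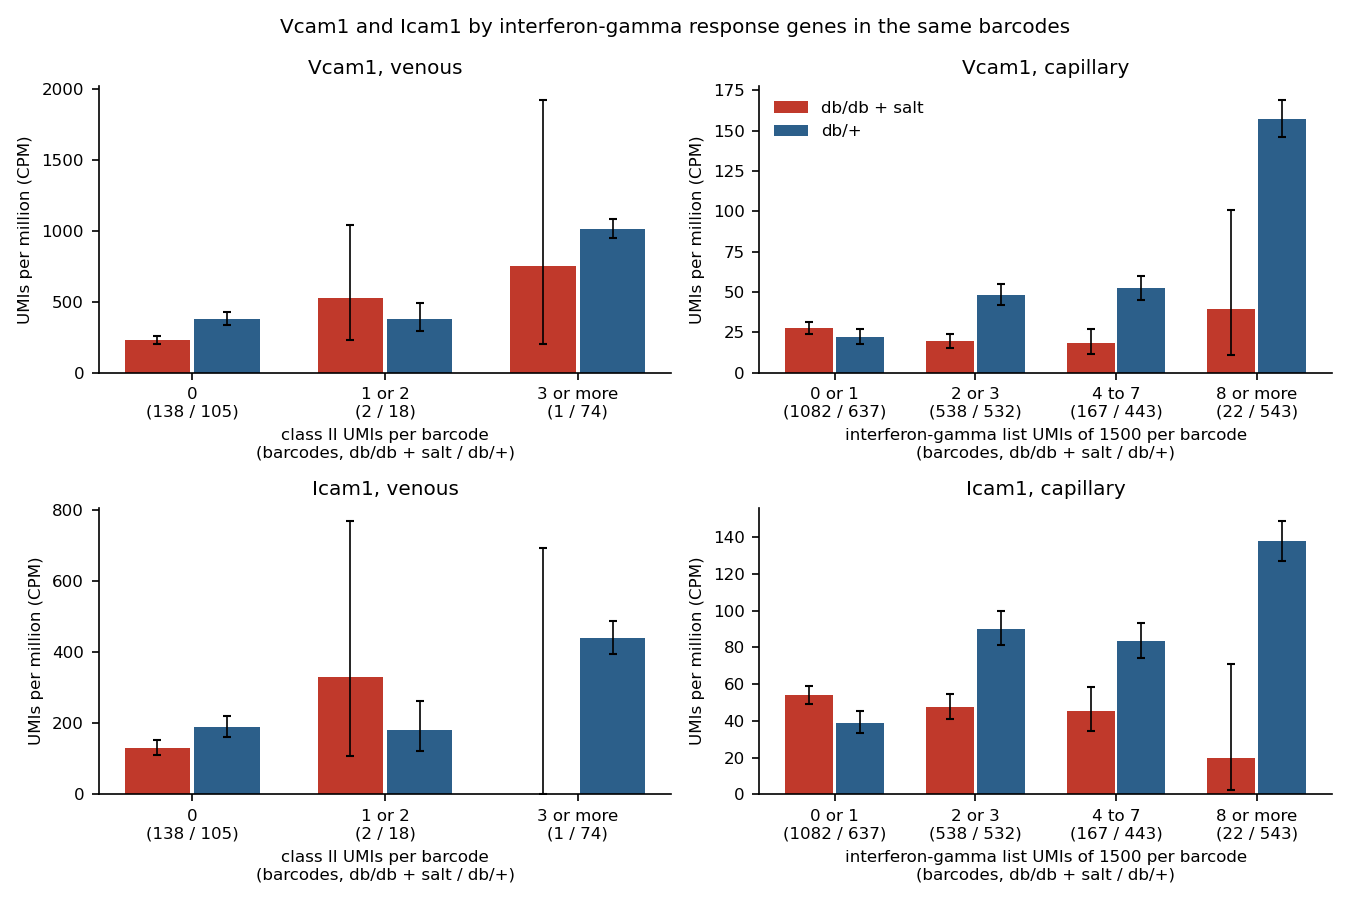
Vcam1 and Icam1 levels in CPM (linear axes from 0) in venous barcodes by class II UMIs and in capillary barcodes by interferon-gamma list UMIs of 1500, db/db + salt left of db/+, with Poisson 95% intervals and the number of barcodes in each group in brackets. In db/+ the levels are highest in the rightmost groups, and few db/db + salt barcodes fall there: 1 venous barcode and 22 capillary barcodes.

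Markers of other cells were looked at beside these values. The 7 leukocyte markers summed to 0 UMIs in db/db + salt and 25 UMIs (14.0 CPM) in db/+ venous barcodes, and to 3.56 and 5.32 CPM in capillary barcodes; the db/+ venous UMIs included 13 of Cd79a, a B cell gene, 7 of Ptprc, which encodes CD45, and 3 of Cd68, a macrophage gene, all at 0 UMIs in db/db + salt, while Cd3e and Csf1r were at 0 in both. Their part in the Vcam1 and Icam1 differences was not tested. Fibroblasts carry Vcam1, so capillary barcodes without any fibroblast or mural marker UMI were taken apart: in 667 such barcodes of db/db + salt and 968 of db/+ Vcam1 had 36.2 and 58.9 CPM, a log2 ratio of -0.58 (-0.83 to -0.33), just short of 1.5-fold. These barcodes were also shallower, with a median of 4104 UMIs in db/db + salt and 4155 UMIs in db/+. The other capillary barcodes had medians of 6453 and 7365 UMIs. Fibroblast markers summed to 75.9 CPM in db/db + salt and 41.6 CPM in db/+ capillary barcodes. The parts of these markers and of depth in the Vcam1 difference were not tested further. Without the Cytl1 barcodes, arterial Vcam1 had 13.2 CPM in db/db + salt and 88.7 CPM in db/+, a log2 ratio of -2.09; the 7 and 11 barcodes left out had 907 and 937 CPM.

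Among fibroblasts, those with mostly Hsd11b1 and Cxcl14 UMIs had the highest Vcam1 levels, 254 CPM in db/db + salt and 318 CPM in db/+. Fibroblasts with mostly Pi16 and Dpp4 UMIs, an adventitial type, had 158 and 171 CPM in db/db + salt and db/+. Icam1 differed most in the Hsd11b1 and Cxcl14 fibroblasts, with 31.9 CPM in db/db + salt and 82.9 CPM in db/+, a log2 ratio of -1.15 (-1.48 to -0.82). In Cilp and Postn fibroblasts it had 46.0 CPM in db/db + salt and 54.4 CPM in db/+, a log2 ratio of -0.20 (-0.52 to 0.11). Icam1 in Pi16 and Dpp4 fibroblasts and Vcam1 in Cilp and Postn fibroblasts are not given, so the spread of the 2 genes over types is not compared. The difference between types was not tested. These values are from barcodes that were not thinned. Over all fibroblasts the Icam1 ratio of -0.71 became -0.28 after thinning.

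Shares of barcodes with a UMI were compared after each barcode had been thinned to 1500 UMIs, since depth differs between classes. Vcam1 was found in 2.49% (1.82 to 3.31) of db/db + salt and 5.66% (4.72 to 6.72) of db/+ capillary barcodes, and in 31.9% (24.3 to 40.3) and 43.8% (36.7 to 51.1) of venous ones. Without thinning the capillary shares were 7.52% and 16.9%. Icam1 was found in 5.53% (4.52 to 6.68) of db/db + salt and 9.37% (8.18 to 10.7) of db/+ capillary barcodes. Venous shares of Vcam1 overlapped where the CPM intervals did not. Icam2 was found in 46.9% and 56.6% of capillary barcodes of db/db + salt and db/+, and in 0.83% and 1.31% of fibroblasts, which should lack it. The median depth was 5325 and 5499 UMIs in capillary barcodes and 12000.5 and 9638 UMIs in fibroblasts of db/db + salt and db/+. Icam1 was found in 0 of 56 thinned db/db + salt mural barcodes, which allows up to 5.36% of barcodes with a UMI at that depth but does not limit the share that expresses the gene, and in 0 of 60 db/+ ones; the mural median depth was 4463 UMIs in db/db + salt and 4217 UMIs in db/+. Among thinned venous barcodes with a Vcam1 UMI, 22.2% (11.2 to 37.1) in db/db + salt and 36.5% (26.3 to 47.6) in db/+ also held an Icam1 UMI, against 13.5% (7.41 to 22.0) and 20.2% (13.1 to 28.9) of those without one. Jam2 was found in 58.2% of db/db + salt and 52.7% of db/+ capillary barcodes. Selp had a UMI in 1 of 1809 thinned capillary barcodes of db/db + salt and in 0 of 2155 of db/+, which allows up to 0.14% of barcodes with a UMI at that depth; in fibroblasts the shares were 0.09% and 0.08%. The limits of 5.36% and 0.14% are approximate 1-sided limits, lower than the upper ends of Clopper-Pearson intervals.

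The genes around the 6 members differed by list. Of 18 interferon-gamma response genes, 17 were measured in capillary barcodes and 16 were at least 1.5-fold lower in db/db + salt, with a median log2 ratio of -1.85, against a median of 0.05 over all measured genes. All 18 were lower in venous barcodes, and 5 of 11 measured ones in fibroblasts. The list shares Irf1 with the NF-kB list. In all endothelial barcodes together the chemokine gene Cxcl10 had 2.69 CPM in db/db + salt and 49.5 CPM in db/+. Of 22 NF-kB target genes, 1 of 16 measured was lower in capillary barcodes, namely Ccl2, and 8 of 19 in venous barcodes, with medians of -0.15 and -0.50. Among the venous ones, Cxcl1, a neutrophil chemokine, had 18.6 CPM in db/db + salt and 69.9 CPM in db/+, while the NF-kB subunit gene Nfkb1 had 102 and 88.3 CPM.

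Other adhesion and junction molecules of capillary, arterial and venous endothelium stayed within 1.5-fold. Of 22, 17 were measured, and 0 were lower and 0 higher in each of these classes; Podxl, a sialomucin of the vessel surface, had 679.97 CPM in db/db + salt and 544 CPM in db/+ in all endothelial barcodes. Of 22 receptors of inducing cytokines and their adaptors, 1 of 18 measured was lower in capillary barcodes and 3 of 20 in venous barcodes, with medians of -0.04 and -0.11. Tlr2 and Il13ra1 were among the venous ones, and Ifngr1, an interferon-gamma receptor gene, had 293 CPM in db/db + salt and 318 CPM in db/+ capillary barcodes. Of 13 factors that tune adhesion genes, Nr4a1, an early response gene that also responds to tissue digestion, was at least 1.5-fold higher in capillary barcodes, with 65.4 CPM in db/db + salt and 34.2 CPM in db/+. In venous barcodes 3 of 12 early response genes were higher in db/db + salt, Nr4a1 among them; their part in the member differences was not tested. Shedding and glycosylation genes held 5 measured of 12 in capillary barcodes, 0 of them past 1.5-fold in either direction; in venous barcodes Sulf1, a sulfatase gene, was higher, with 61.4 CPM in db/db + salt and 29.1 CPM in db/+. Of the leukocyte list only Cd44 was measured in capillary barcodes, and 0 genes in venous barcodes.

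**Figure D5:**
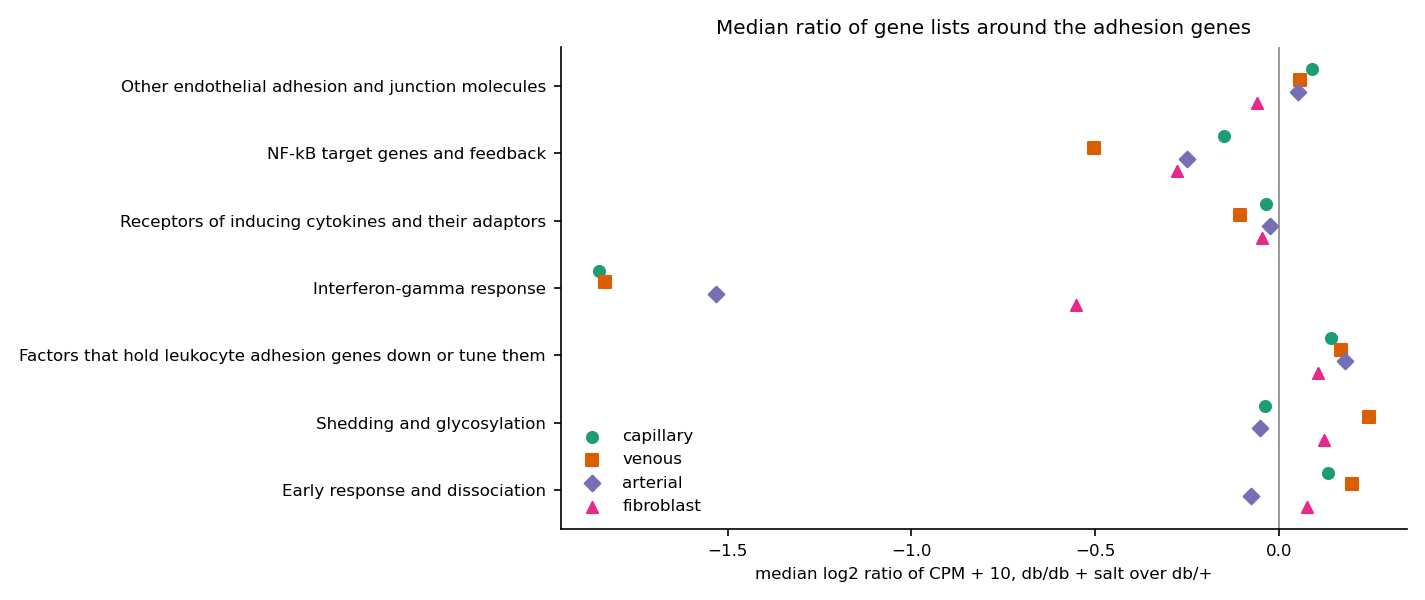
Median log2 ratio of CPM plus 10, db/db + salt over db/+, over the measured genes of each list in capillary, venous, arterial and fibroblast barcodes (each point is a list in a class; no interval is drawn). The interferon-gamma response list stands at -1.85 in capillary and -1.83 in venous barcodes, and the other adhesion and junction molecules lie near 0.

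Genes with the most similar pattern over the 12 points of 6 classes and 2 libraries were named by Pearson correlation of log2 of CPM plus 10, among 5829 genes. Classes share a library and its depth, so these are descriptions. For Vcam1 they were Il6st (r = 0.94), Psen2 (0.93) and Grn (0.91), for Icam1 Arsa (0.95), Rps25 (0.94) and Pfdn5 (0.94), and for Icam2 Egfl7, Clec1a and Palmd (0.99 each). For Jam2 they were Nras, Arpc1a and Hspa12b (0.99 each). Selp, with Golm1 (0.94), Lrg1 (0.92) and Slco2a1 (0.91), and Sele, with Ubr1 (0.97), Tpi1 (0.96) and Efhd2 (0.95), did not themselves reach the level asked of the compared genes. Lrg1 was among the markers that set the venous class, and Egfl7 among the endothelial markers that set the classes.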

How the data were processed

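The authors deposited unnormalized UMI counts for each barcode and gene; per the file headers these came from Cell Ranger 6.0.2, and per the submitters' processing notes Seurat and GRCm38 (mm10) were used. What Seurat was used for, how barcodes were chosen and whether hearts were pooled is not stated there. Kept barcodes had 500 or more genes and no more than 10% mitochondrial UMIs (13 genes), and doublets were called by Scrublet in scanpy 1.11.5 at 0.8% per 1000 cells (50 in db/db + salt, 1.21%, and 64 in db/+, 1.29%) and removed. Stromal classes needed at least 5 UMIs from 3 markers and 80% of the endothelial, fibroblast and mural marker UMIs; endocardial barcodes needed 10 UMIs from 3 markers, without counting Dcn and Lum against them. Arterial barcodes needed 8 UMIs and 20 per 10000, venous 4 and 10, capillary 5 and 20; these limits were chosen after the values were seen. Within 25% of the arterial and venous rates lay 272 and 203 of 2531 db/db + salt and 250 and 230 of 3023 db/+ endothelial barcodes. Mural barcodes had at most 4 endothelial UMIs; the 63 and 78 with more were set apart. UMIs were summed per class and library; the counts carry exact Poisson intervals (scipy 1.17.1), shares Clopper-Pearson intervals. Upper limits given for shares without any UMI are instead approximate 1-sided limits. No test was possible, and 1 gene of the lists is not reported here. Alternatives were pseudocounts, thinning, clusters, edgeR 4.0.16 TMM factors, filters and marker limits. The ratio was tested on simulated Poisson counts of capillary, venous and fibroblast barcodes, with 3-fold changes in genes of at least 50 CPM. The simulation does not cover lower genes such as Selp and Sele, endocardial or mural values, or variation between libraries. All 6 genes and every list were chosen with earlier results of these data known. Named list genes were up to 4 per list with the largest absolute ratio in endothelial barcodes, plus genes a sentence needed.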

Additional observations from a re-analysis of the deposited data

Results flagged for a closer look

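Selp differed in opposite directions in 2 classes, with a log2 ratio of -0.86 in venous barcodes and 1.22 in endocardial barcodes. This stands out because its sign turns between classes under the same contrast of db/db + salt with db/+. The turn is lost under some alternatives: the endocardial value is -0.17 in clusters, and the venous value is -0.28 after thinning and -0.06 without class II barcodes. The difference between the classes was not tested, since each group is 1 library. The venous value rests on 18 UMIs in db/db + salt and 62 in db/+, and the endocardial value on 18 and 3.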

How the results depend on the processing

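No paired analysis was possible because each group has 1 library. Vcam1 in capillary barcodes (log2 ratio -1.25) gave -1.03 as a mean over barcodes, -0.95 after thinning, -1.01 in clusters, -0.58 without fibroblast or mural marker UMIs, -0.59 without class II barcodes (added after seeing the data), and -1.52 and -0.71 with 1 and 50 CPM added. Vcam1 in venous barcodes (-1.48) gave -1.74 without fibroblast or mural marker UMIs and -0.71 without class II barcodes. Icam1 in capillary barcodes (-0.69) gave -0.91 and -0.39 under these 2 settings and -0.46 with 50 CPM added. Icam1 in venous barcodes (-1.12) gave -0.84 and -0.49 under them, -0.86 after thinning and -0.88 in clusters. Selp in endocardial barcodes (1.22) turned to -0.17 in clusters. Vcam1 in arterial barcodes (-1.46) gave -0.72 without class II barcodes and -2.09 without Cytl1 barcodes. Selp in venous barcodes (-0.86) gave -0.39 with 50 CPM added and -0.06 without class II barcodes. The cause of these moves was not tested. Vcam1 kept its direction under all 15 alternatives in all 6 classes, from -0.58 to -1.52 in capillary barcodes, and Jam2 in capillary barcodes stayed between 0.18 and 0.30. Jam2 in venous barcodes (0.26) ranged from -0.04 to 0.43. Of the member log2 ratios under alternatives, 480 moved by less than counting error, 59 by more, and 1 was reversed. A reversal was counted only where the main ratio was at least 1.5-fold. These counts include members below the level set for a measured gene. Smaller ratios also turned sign. In endocardial barcodes Jam2 (0.06) kept its direction under 12 of 15 alternatives, with a lowest value of -0.61. Icam1 there (-0.34) kept its direction under 14 of 15, with a highest value of 0.28. TMM factors shifted the median of all genes by under 0.1 in each class. Few UMIs limit Selp and Sele, and few barcodes limit the endocardial (46 in db/db + salt and 50 in db/+) and mural (61 and 65) values.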

Other observations

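Lymphatic endothelial barcodes, which belong to none of the 6 classes, numbered 28 in db/db + salt and 30 in db/+. They held 2 Jam2 UMIs in db/db + salt and 40 in db/+, or 5.38 and 74.1 CPM, with the 40 in 10 barcodes. Markers of other cells differed too: mural markers summed to 99.6 CPM in db/db + salt and 1217 CPM in db/+ lymphatic barcodes. Fibroblast markers summed to 80.7 and 296 CPM, and lymphatic markers to 6491 and 4695 CPM. The part of such mixed barcodes in the Jam2 difference was not tested. Icam2 in these barcodes had 266 CPM in db/db + salt and 339 CPM in db/+. Sele was at 0 UMIs in lymphatic barcodes of both libraries.

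Cycling capillary barcodes numbered 23 in db/db + salt and 86 in db/+. Vcam1 had 17.7 CPM in db/db + salt and 135 CPM in db/+ there, a log2 ratio of -2.38 (-3.02 to -1.70), and Jam2 had 317 and 324 CPM. Among capillary barcodes with 5 or more UMIs of 6 angiogenic genes, Vcam1 had 18.2 CPM in db/db + salt and 72.6 CPM in db/+, and Jam2 had 564 and 438 CPM. Barcodes that carried both mural and endothelial markers held 14 Vcam1 UMIs in db/db + salt and 86 in db/+, and 2 Sele UMIs in each.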
